A study of Bos taurus with 12 samples.

Results

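In the low methylated DNA of tough and tender Angus beef, 4628 genomic regions had a MACS2 peak in both libraries of tough beef and in neither library of tender beef. They were found by joining the peaks of the 4 low libraries that shared 1 bp or more on chromosomes 1 to 29, which gave 49965 low-level regions, of which these 4628 were 9.26%. They are called tough-specific low-level regions here, and the other 45337 low-level regions are the comparison. Since the peaks of LTE and LTO chose the regions, their presence in LTO and absence from LTE is a description and no finding. The question is what the same regions looked like in the medium and high methylated DNA, which the choice did not use.

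Cytosine methylation at CpG dinucleotides is a stable mark of vertebrate genomes, laid down and copied by DNA methyltransferases and usually abundant outside CpG islands. In MBD-seq, sheared genomic DNA is bound by a methyl-CpG binding domain protein, here the MethylCap protein, and the bound fragments are sequenced. Fragments with more methylated CpGs hold on to the protein more tightly, so elution in steps of salt concentration splits the captured DNA by its density of methylated CpGs. A peak is a stretch where fragments pile up above the local background, and a stretch can have a peak in more than 1 eluate.

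The tissue was longissimus muscle of Angus steers, labelled longissimus dorsi in the records and longissimus lumborum in the paper. Tender and tough beef were represented by 2 animals each, chosen at random from the animals with the lowest and the highest shear force, and all animals had the same feed and herd of origin. Each of the 4 animals gave 3 eluates, so that there were 12 libraries in 6 groups of 2: HTE and HTO (high methylated DNA of tender and tough beef), MTE and MTO (medium) and LTE and LTO (low). No treatment was applied, and with 2 animals per group a tough-tender difference and a difference between individual animals cannot be told apart. The assignment of salt steps to methylation levels differs between the Methods and a supplementary note, so that the level names of the labels are used throughout. Peak lists carry no expression values, so the tissue could not be checked by marker genes, and genes, CpG islands and repeats at the regions were not analysed here.

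After duplicate removal the libraries held 3677473 to 7981292 tags. The number of peaks on chromosomes 1 to 29 was 9555 in LTE_1 and 16881 in LTE_2, against 27783 in LTO_1 and 28599 in LTO_2. In the medium libraries the order was the opposite, with 33562 and 35688 peaks in MTE against 23982 and 24797 in MTO. HTE had 11057 and 12784 peaks and HTO 10178 and 11879. The share of regions with a peak in a library moves with these numbers, and one setting bears on this: only the strongest peaks of each list were kept, as many as the shortest list of that level held. Values under this equal-length setting stand beside many of the results it changes or with the alternatives at the end.

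At their own level the tough-specific regions were wider than the other low-level regions and had LTO peaks of about the same height. Their median width was 253 bp (quartiles 210 and 319, range 165 to 998), and together they covered 1.27 Mb. The other low-level regions had a median width of 182 bp. The rule bears on this difference, since each tough-specific region joins peaks of both LTO libraries, so it is no finding. Of the other regions, 25672 had a peak in 1 LTO library and no LTE library, with a median width of 166 bp. Regions with peaks in both LTO libraries and in 1 or both LTE libraries were wider, at medians of 306 and 415.5 bp. Pileup is the number of tags stacked at the summit of a peak. Its median in tough-specific regions was 10 in LTO_1 and 9 in LTO_2, against 10 in both for the other regions with a peak there. The median fold enrichment over the local background was 5.97 in LTO_1 and 6.41 in LTO_2, against 5.97 and 6.32. In 2009 regions (43.4%) the weaker of both LTO peaks had a −log10 q under 5. Under the equal-length setting, 579 regions met the rule.

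At the edge of the rule, the 3 regions with the weakest LTO peak were at chr12:90789479-90789770, chr14:1530678-1530966 and chr11:102744249-102744515, with pileups of 8 and 16, 5 and 10, and 10 and 5 in LTO_1 and LTO_2. Just outside it, the 3 regions whose single LTE peak was weakest were at chr25:8606849-8607168, chr6:38671590-38671971 and chr21:11798427-11798745. Each of these had a pileup of 5 in LTE_2, and pileups of 6 to 10 in LTO.

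Many of the regions did have a peak in the low eluate of tender beef once the reads of both animals were merged. In the list that the authors called on the merged reads of both LTE libraries, 2761 of the 4628 regions (59.7%, Wilson 95% interval 58.2 to 61.1%) had a peak, close to the 61.0% of the other low-level regions. The merged LTO list held all of them except 1, chr29:19403196-19403373, a 178 bp stretch with pileups of 225 in LTO_1 and 184 in LTO_2 but fold enrichments of 1.64 and 1.85. In the 2761 regions with both merged peaks, the median pileup was 17 in LTO and 10 in LTE. Scaled by depth, as pileup per 1000000 tags left, the LTO peak exceeded the LTE peak in 2706 of them (98.0%), with a median ratio of 1.54. The merged lists have no replicates, they were called with another MACS2 version than the single lists, and the same reads chose the regions, so these values are descriptive. Of the 579 regions under the equal-length setting, which left the merged lists whole, 80.8% had a merged LTE peak.

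Most tough-specific low-level regions also carried a peak in medium methylated DNA, and about 1 region in 5 did so in a high library. MTE_1 had a peak in 62.9% of them and MTE_2 in 64.1%, MTO_1 in 49.0% and MTO_2 in 51.2%. HTE_1 had a peak in 19.6%, HTE_2 in 23.0%, HTO_1 in 19.7% and HTO_2 in 23.9%. The counting error of such a share was small, for MTO_1 a Wilson 95% interval of 47.6 to 50.4%. The mean of the medium libraries was 56.8% ± 7.79 (SD, n = 4) and that of the high libraries 21.5% ± 2.23, a difference of 35.3 percentage points in which each medium library lay above each high library (exact permutation test, two-sided, p = 0.0286, which is the lowest that 4 against 4 allow). The 4 medium and the 4 high libraries came from the same 4 animals, which this test does not take into account. With same-numbered libraries of each beef taken as pairs, medium exceeded high in 4 of 4 pairs and the call was lost (exact sign-flip p = 0.13, which 4 pairs cannot go below). The other low-level regions showed the same order, at 33.9% ± 5.51 in the medium and 15.3% ± 1.01 in the high libraries (SD, n = 4). Their difference was 18.6 points (exact permutation test, p = 0.0286). Medium lists were longer than high lists, and the equal-length setting evens the lengths only within a level.

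**Figure D1:**
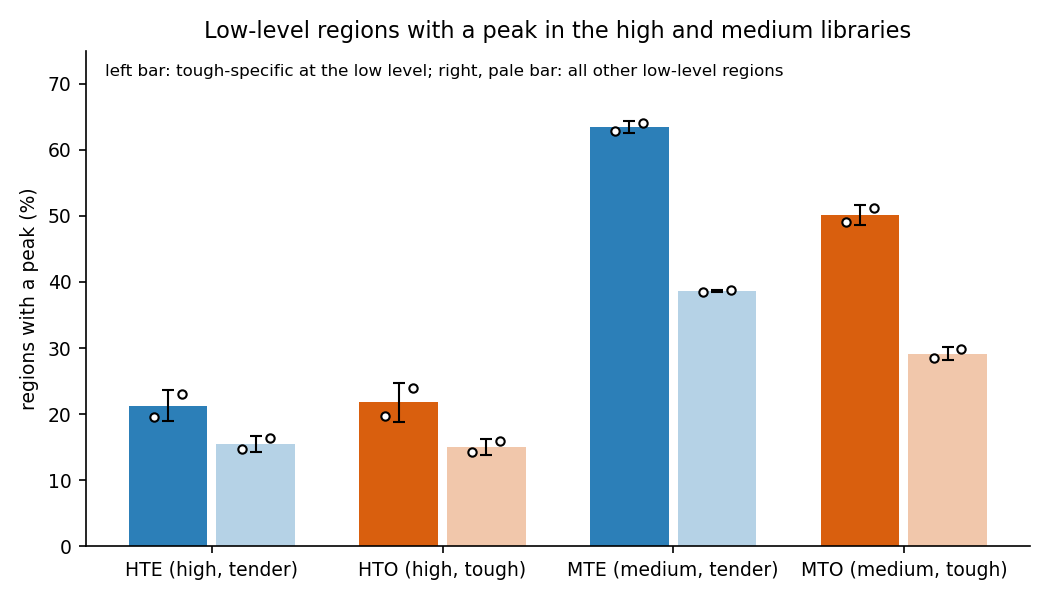
Share of low-level regions with a peak in the HTE, HTO, MTE and MTO libraries, in percent, for the 4628 tough-specific regions (left bar of each pair) and the 45337 other low-level regions (right, pale bar); bars are means, error bars SD and circles the 2 libraries. The MTE circles lie above the MTO circles for both kinds of region, while the HTE and HTO circles overlap.

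The tough-specific regions had peaks at the other levels more often than the remaining low-level regions, in each of the 8 libraries. Among the other regions MTE had a peak in 38.5% and 38.8%, MTO in 28.4% and 29.9%, HTE in 14.7% and 16.4%, and HTO in 14.2% and 15.9%. Averaged over the medium and high library of each animal, with libraries of the same beef and number taken as 1 animal, the excess was 14.6 percentage points ± 1.21 (SD, n = 4 animals). It was positive in 4 of 4 animals, from 13.0 to 16.0 (p = 0.13 in the exact sign-flip test, its lower limit for 4 animals). The excess depended on asking for both LTO libraries: with LTO replicate 1 or 2 left out, regions with a peak in the remaining LTO library and no LTE library had an excess of −13.8 and −17.0 points. The comparison was not matched for width. The tough-specific regions were wider, at a median of 253 bp against 182 bp, and among them wider regions had such peaks more often, as given below.

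The comparison regions are a mixture of classes that differ by which low libraries had a peak, and the shares differed between the classes. Of regions with a peak in 1 LTO library and no LTE library, the largest class with 25672 regions, 27.8% ± 0.34 (SD, n = 2) had a peak in MTE and 19.1% ± 1.08 in MTO, and 6.99% ± 1.28 had one in HTE and 6.59% ± 1.27 in HTO. Of the 5186 regions with a peak in all 4 low libraries, 92.6% ± 0.19 had one in MTE, 85.7% ± 0.35 in MTO, 70.3% ± 1.02 in HTE and 68.9% ± 0.82 in HTO. The tough-specific regions, at 63.5% ± 0.90, 50.1% ± 1.57, 21.3% ± 2.40 and 21.8% ± 2.99, lay between these classes in each group. They also lay below the 3039 regions with peaks in both LTO libraries and 1 LTE library, at 77.6% ± 0.33 in MTE and 32.6% ± 1.88 in HTE. They lay above the 583 regions with peaks in 1 LTO and both LTE libraries, at 52.5% ± 0.24 in MTE, 29.8% ± 1.94 in MTO, 11.4% ± 0.85 in HTE and 10.1% ± 0.49 in HTO. The mirror class, 250 regions with a peak in both LTE libraries and no LTO library, reached 31.4% ± 1.98 in MTE, 12.2% ± 3.11 in MTO, 4.00% ± 1.13 in HTE and 4.60% ± 0.28 in HTO. Restricted to comparison regions with a peak in exactly 2 of the 4 low libraries, the excess of the tough-specific regions was 16.1 percentage points (p = 0.13 in the exact sign-flip test).

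**Figure D2:**
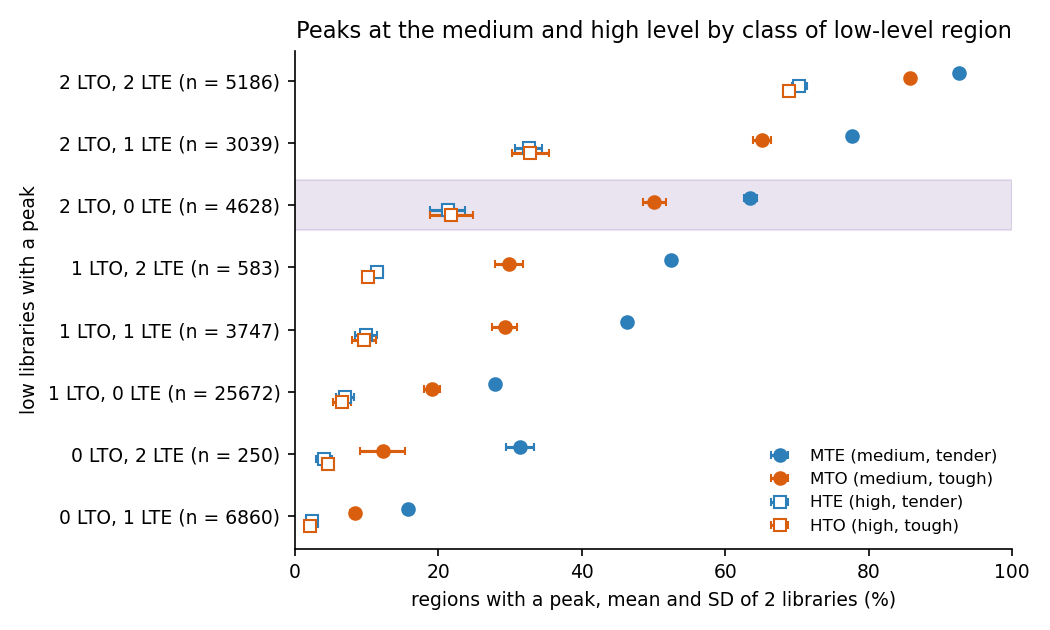
Share of low-level regions with a peak in medium (filled circles) and high (open squares) libraries, in percent, by the number of LTO and LTE libraries with a low-level peak; points are means and bars SD of 2 libraries, blue for tender and orange for tough beef. The shaded row is the tough-specific class, in which MTE reached 63.5% and MTO 50.1%, and in each of the 8 rows the MTE point lies to the right of the MTO point.

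By eluate, the regions fell into 3 groups of unequal size. A peak in at least 1 medium library but no high library was seen for 2172 regions (46.9%), peaks at both levels for 1459 (31.5%), and a peak at neither for 989 (21.4%). Of the other regions 29.4% were medium without high, 20.4% both and 49.98% neither. High without medium was rare, with 8 regions (0.173%, against 0.201% of the other regions). Of all low-level regions 47.3% had no peak in any medium or high library, compared with the 21.4% here. Under the equal-length setting these shares were 39.3% and 17.4%. Of the 989, a further check against the merged lists left 351 regions (7.58% of the 4628) with no peak in any medium or high list, single or merged, against 30.4% of the other regions. Beyond these lists, 199 regions (4.30%) had a peak in the LTO lists and in no other list of the 18.

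At the opposite end, 609 regions (13.2%, Wilson 95% interval 12.2 to 14.2%) had a peak in all 8 medium and high libraries, against 11.0% of all low-level regions. The distribution over libraries was therefore broad, with 665 regions in 1 library, 605 in 2, 550 in 3, 540 in 4, 278 in 5, 190 in 6 and 202 in 7. Of the other regions, by contrast, 49.98% were in no medium or high library and 10.8% in all 8. A peak in all 4 medium libraries was seen in 1631 regions (35.2%; 22.0% of all low-level regions) and in all 4 high libraries in 630 (13.6%; 11.4%).

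**Figure D3:**
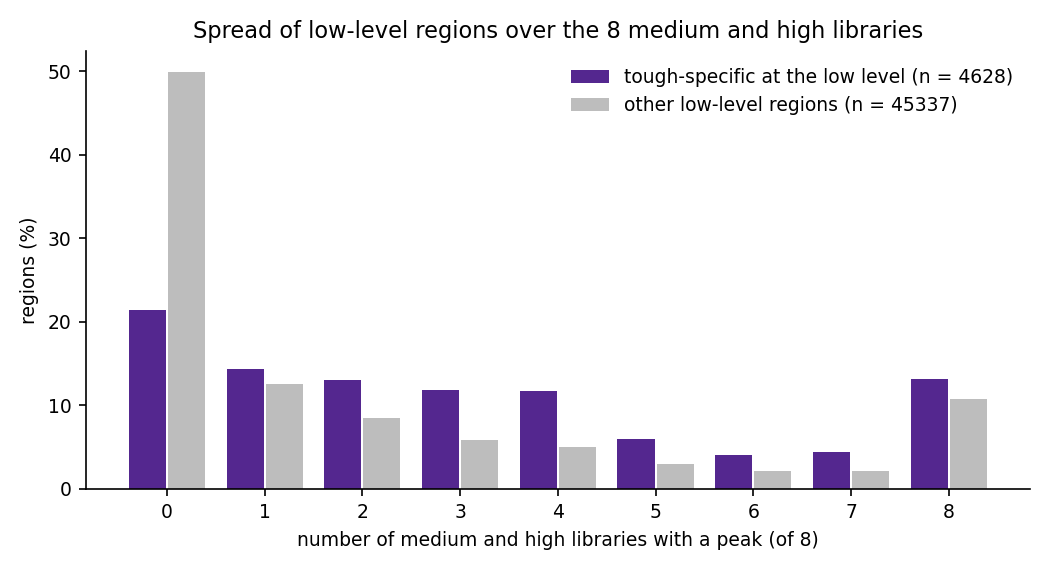
Percent of regions (vertical axis) with a peak in 0 to 8 of the medium and high libraries (horizontal axis), for the tough-specific regions (purple) and all other low-level regions (grey). The tough-specific regions are fewer at 0, 21.4% against 49.98%, and more frequent at each number from 1 to 8.

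In medium methylated DNA the regions chosen for a tough-only peak at the low level had more peaks in tender than in tough beef. The tough minus tender difference in share was −13.4 percentage points, with both MTE libraries above both MTO libraries (exact permutation test, two-sided, p = 0.333, which is the lowest that 2 against 2 allow). The other low-level regions shifted the same way, by −9.49 points. Relative to the other regions of the same library, the order depended on the scale and on the setting. As a ratio it turned: the share in tough-specific regions was 1.63 and 1.65 times that in the other regions in MTE. The factor was 1.72 in both MTO libraries, a difference of 0.07 on the log2 scale (exact permutation test, p = 0.333). In percentage points the order did not turn in the full lists, with an excess over the other regions of 24.9 in MTE and 21.0 in MTO. That is a difference of −3.88 points (exact permutation test, p = 0.333). Under the equal-length setting, the shares were 66.0% and 67.0% in MTE and 65.3% and 64.4% in MTO, and the difference was −1.64 points (exact permutation test, p = 0.333). The other regions then had shares of 47.4% and 46.9% in MTE and 43.0% and 43.7% in MTO. The excess in points was thus larger in MTO under that setting. In the full lists, comparison regions with a peak in exactly 2 of the 4 low libraries had 45.2% and 45.5% in MTE and 26.9% and 29.5% in MTO. Against these regions the excess was also larger in MTO.

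Single regions showed the same asymmetry. In 1358 regions (29.3%; 21.0% of all low-level regions) more medium tender than tough libraries had a peak, and in 371 (8.02%; 5.52% of all) more tough than tender libraries had one. The full reversal, tough-specific at the low and tender-specific at the medium level, was seen in 323 regions (6.98%, Wilson 95% interval 6.28 to 7.75%; 4.90% of all low-level regions). The full repeat, tough-specific at both levels, was seen in 72 regions (1.56%, 1.24 to 1.95%; 0.708% of all). Both kinds were thus more frequent here than over all low-level regions, by 1.43 and 2.20 times. Both need a medium peak, however, which 47.5% of all low-level regions lacked, against 21.5% here. Among regions with any medium peak, the reversal was seen in 323 of 3631 tough-specific and 2124 of 22587 other regions, so it was not more frequent there. The repeat was seen in 72 and 282 of these. More tender than tough libraries had a peak in 1358 and 9151 of these, and more tough than tender libraries in 371 and 2386. Among regions with any medium peak, neither order was thus more frequent in the tough-specific regions. Under the equal-length setting, 19 of the 579 remaining regions were tender-specific and 16 tough-specific at the medium level, 3.28% and 2.76%, against 3.17% and 1.60% of all regions under that setting. Leaving out 1 of the 4 medium libraries, so that 1 library of that beef decides, raised the counts to 547 to 610 and 135 to 166.

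**Figure D4:**
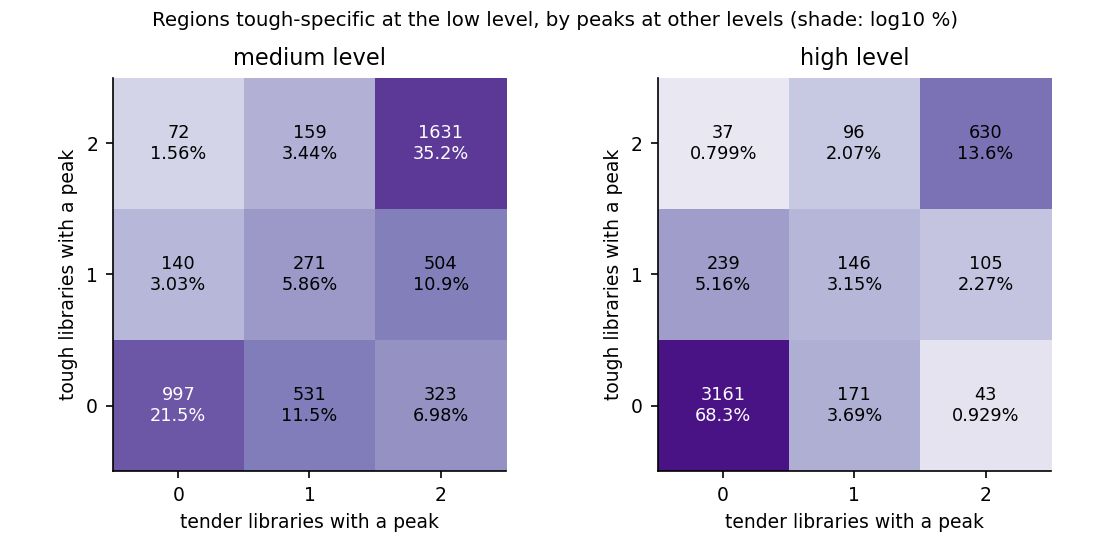
Number and percent of the 4628 tough-specific low-level regions by how many tender (horizontal) and tough (vertical) libraries had a peak, at the medium (left) and high level (right); the shade is the log10 of the percent. At the medium level 323 regions sit in the tender-only corner and 72 in the tough-only corner, while at the high level these corners hold 43 and 37 and 3161 regions have no peak.

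In high methylated DNA the shares of tough and tender beef did not separate in the full lists. Those of HTE and HTO overlapped and differed by 0.51 percentage points (exact permutation test, p = 0.667). Under the equal-length setting they separated, at 31.4% and 29.7% in HTE and 34.0% and 32.0% in HTO. The tough minus tender difference in share was then 2.42 points (exact permutation test, p = 0.333, the lowest that 2 against 2 allow). Tough-specific at the high level were 37 regions (0.799%; 0.364% of all low-level regions) and tender-specific 43 (0.929%; 0.598% of all). The tough minus tender difference was 13.9 points lower at the medium than at the high level, and the test of this contrast over the 36 arrangements of the libraries within levels, added after the data were seen, gave an exact permutation p of 0.111, where 0.0556 is the smallest possible. For the other regions the same contrast was −9.04 points (exact permutation test, p = 0.278).

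Where all 4 medium libraries had a peak, the height of the peaks in tough and tender beef overlapped. In these 1631 regions, chosen by presence in both kinds of beef, the median depth-scaled pileup was 2.58 in MTE_1, 2.32 in MTE_2, 2.33 in MTO_1 and 2.35 in MTO_2. The difference of the library medians was −0.07 on the log2 scale (exact permutation test, p = 1), whereas the median of the log2 ratios of single regions was 0.11, so that both summaries differed in sign. Both tough libraries lay above both tender libraries in 609 regions (37.3%; 47.3% of all low-level regions with 4 medium peaks), and both tender above both tough in 297 (18.2%; 15.4% of all). In the 630 regions with a peak in all 4 high libraries the medians were 5.30 and 6.30 in HTE and 6.25 and 6.99 in HTO, a log2 difference of 0.19 (exact permutation test, p = 0.667). There both tough libraries lay above both tender libraries in 367 regions (58.3%; 71.0% of all low-level regions with 4 high peaks), and both tender above both tough in 29 (4.60%; 3.69% of all). Under the equal-length setting, the log2 difference of the library medians at the medium level turned to 0.069 (exact permutation test, p = 0.333).

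A pair of regions was tough-specific at all 3 levels, and they were singled out after their values were seen. Over all low-level regions, 11 (0.0220%) were tough-specific at both the medium and the high level. The first, chr6:108235701-108236698 on bosTau8, was the widest of all tough-specific regions at 998 bp. Its pileup was 30 in LTO_1, 50 in LTO_2, 41 in MTO_1, 40 in MTO_2, 16 in HTO_1 and 25 in HTO_2, and no peak was listed in any of the 6 tender libraries or in the 3 merged tender lists. The merged lists of tough beef gave pileups of 65 in LTO, 74 in MTO and 37 in HTO, with fold enrichments of 7.76, 8.12 and 8.03. At a distance of 2023 bp lay another tough-specific region, chr6:108233418-108233677, which had pileups of 29 and 37 in LTO and 35 and 31 in MTO. This neighbour was not limited to tough beef, since HTE_1 had a pileup of 9 and the merged LTE list one of 16 there.

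The second, chr26:45751031-45751691, was 661 bp wide and weaker. Its pileup was 15 in LTO_1, 19 in LTO_2, 10 in both MTO libraries and 8 in both HTO libraries. Again no tender list, single or merged, had a peak in it. The adjoining region chr26:45750580-45750967, 63 bp away, had pileups of 20 and 14 in LTO and 9 in MTO_1 and fell under the same merged LTO peak. The regions chr6:108235701-108236698, chr26:45751031-45751691 and chr26:45750580-45750967 and a last one, chr25:31824250-31824585 with pileups of 9 and 7 in LTO and 9 and 13 in MTO, made up the 4 of the 4628 regions with a peak in the 3 merged tough lists and in no tender list, and 16 of the other regions had this pattern, together 0.0400% of all low-level regions.

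Of the 72 regions that were tough-specific at both the low and the medium level, 55 had a peak in the merged MTE list and 43 in the merged LTE list. Their median pileup was 19 in the merged MTO list and, for the 55, 11 in the merged MTE list. The 5 with the strongest medium peaks all had a peak in the merged MTE list, with pileups of 10 to 11 against 16 to 28 in the merged MTO list. At chr18:39573404-39573608, the strongest of them, the pileup was 12 in MTO_1 and 21 in MTO_2, and 9 and 10 in LTO, and all 4 high libraries had a peak there, at 13 and 13 in HTE and 18 and 9 in HTO. At chr9:24034276-24034490 the pileup was 13 and 12 in MTO, 8 and 10 in LTO, 10 and 11 in HTE and 12 and 11 in HTO. Scaled by depth, the high libraries of tender and tough beef overlapped in the first of these regions, while in the second both HTO libraries, at 3.26 and 2.96, lay above both HTE libraries, at 2.21 and 2.27. The other 3, chr16:77837679-77837956, chr15:4984751-4985061 and chr19:14159811-14160049, had pileups of 11 to 14 in MTO and no high peak in single libraries.

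The 323 reversed regions were tender-specific at the medium level by the single lists, and 251 of them had a peak in the merged MTO list, with a median pileup of 10 against 20 in the merged MTE list. At chr22:57618106-57618317 the pileup was 16 in MTE_1 and 18 in MTE_2 with no MTO peak, and 7 in LTO_1 and 10 in LTO_2 with no LTE peak. At chr16:61860531-61860819 it was 15 and 19 in MTE and 7 and 11 in LTO. At chr7:8270821-8271056 it was 18 and 15 in MTE and 14 and 10 in LTO. The remaining 2 of the 5 strongest, chr4:46348001-46348263 and chr7:45519276-45519467, each had pileups of 19 and 14 in MTE and of 8 to 11 in LTO. In all 5 the merged lists were less divided, with a merged MTO pileup of 9 to 12 against 29 to 32 in MTE, and a merged LTE peak in 4 of them.

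**Figure D5:**
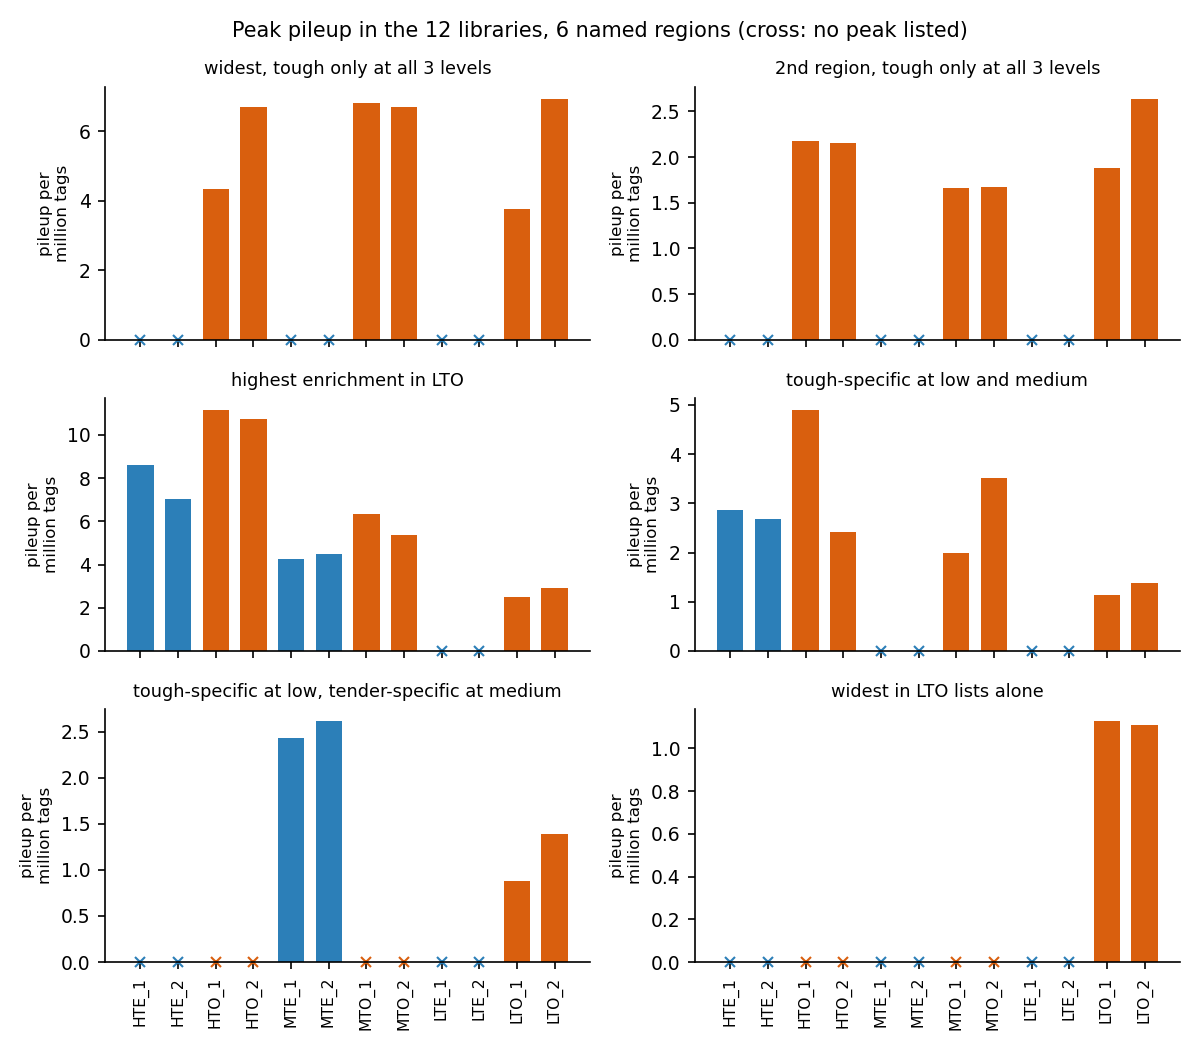
Peak pileup per 1000000 tags left (vertical axes, each with its own scale) in the 12 libraries for 6 named regions, blue for tender and orange for tough beef; a cross marks a library with no peak listed, which is not a measured 0. The panels at the top show both regions with peaks in the 6 tough libraries and no tender library, and the panel at the bottom left shows a region with tender peaks at the medium and tough peaks at the low level.

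Of the 5 regions with the strongest low-level enrichment, 1 was tough-specific at another level too by the single lists. Ranked by the lower of both LTO fold enrichments, the first was chr6:62581414-62581696, at 13.9 in LTO_1 and 14.6 in LTO_2, which had peaks in all 8 medium and high libraries, with pileups of 34 to 41 in the high and 28 to 38 in the medium libraries. The tough-specific one was chr7:76251069-76251314, where the LTO fold enrichments were 15.1 and 12.7 and the medium and high peaks of single libraries were those of MTO_1 and MTO_2, with pileups of 9 and 7. The merged MTE and MTO lists both had a pileup of 14 there, at fold enrichments of 9.06 and 9.46. At chr12:73129239-73129599 and chr13:11495727-11496010 both MTO libraries and at least 1 MTE library had a peak, and chr3:32738341-32738587 again had peaks in all 8. In all 5 regions the merged LTE list had a peak, with a pileup of 9 to 14 against 22 to 40 in the merged LTO list.

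Some tough-specific regions had very high pileup and little enrichment. In 367 regions (7.93%; 7.73% of all low-level regions) both LTO peaks had a pileup of at least 100. Of the 8225 regions with a peak in both LTO libraries and in LTE, 42.5% did so. In the 367 regions the median of the lower fold enrichment was 1.72, with a maximum of 2.32. Of these, 242 had a peak in all 8 medium and high libraries and 255 in the merged LTE list. The 5 with the highest depth-scaled pileup across levels included chr6:89210820-89211034, chr6:89216249-89216425 and chr6:89216521-89216725, which lie within 6 kb of each other, as well as chr24:56955703-56956077 and chr3:1037888-1038223. At chr6:89216249-89216425 LTO had pileups of 242 and 212, MTE of 243 and 228, MTO of 291 and 311, HTE of 274 and 308, and HTO of 304 and 298. The merged LTE list also had a pileup of 212 there, and the LTO fold enrichments were 1.52 and 1.63.

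Of the 37 regions tough-specific at both the low and the high level, 25 had a peak in all 4 medium libraries, and 29 had one in the merged HTE list. Apart from the chromosome 6 region above, the strongest were chr24:61792948-61793355, chr22:60761118-60761559, chr15:19223563-19223973 and chr14:79257200-79257467, all with peaks in the 4 medium libraries. At chr24:61792948-61793355 HTO had pileups of 28 and 34, MTE of 27 and 31, MTO of 28 and 30, and LTO of 16 and 21. The merged HTE list held a peak in these 4 regions, with pileups of 10 to 23 against 17 to 55 in HTO.

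Among the 199 regions in the LTO lists alone, the widest were chr14:79425944-79426527, chr27:40852095-40852555 and chr3:35098807-35099211. Their pileups were 9 and 8, 11 and 10, and 8 and 7 in LTO_1 and LTO_2, and 12 to 16 in the merged LTO list. Next to the region on chromosome 6, the widest tough-specific regions were chr23:51026244-51027153, at 13 in both LTO libraries and 14 to 19 in the medium libraries, and chr5:54081472-54082347, at 114 and 98 in LTO and 133 to 196 in the medium libraries.

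The merged lists gave higher shares, again with MTE above MTO, and at the high level HTE lay above HTO, unlike the means of the single libraries. Of the tough-specific regions 89.3% had a peak in the merged MTE list and 79.1% in MTO, and 38.2% had one in HTE and 32.8% in HTO, against 65.5%, 51.0%, 24.0% and 20.7% of the other regions. Of the tough-specific regions, 608 (13.1%; 17.9% of all low-level regions) were in the merged MTE and not the merged MTO list and 135 (2.92%; 3.78% of all) the other way round. At the high level 461 (9.96%; 5.93% of all) were in HTE and not HTO and 209 (4.52%; 2.38% of all) in HTO and not HTE. Among the 1867 tough-specific regions with no peak in the merged LTE list, the medium shares of single libraries were 58.2% ± 1.74 in MTE and 45.2% ± 1.70 in MTO (SD, n = 2), and 29 were tough-specific and 124 tender-specific at the medium level.

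Wider regions had peaks at the other levels more often. With the regions split at their width quartiles, from the narrowest class (165 to 210 bp) to the widest (320 to 998 bp), the mean share rose from 38.2% to 75.7% in the medium libraries and from 10.8% to 36.6% in the high libraries. MTE stayed above MTO in each class, at 45.5% ± 0.78 against 31.0% ± 0.84 in the narrowest and at 80.2% ± 0.99 against 71.1% ± 1.79 in the widest (SD, n = 2). Split by the quartiles of fold enrichment in LTO, the classes were uneven. The class of lowest enrichment, which holds the regions of very high pileup, had a high peak in 39.9% of its regions on average, compared with 13.7 to 16.5% in the other 3 classes.

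Where a tough-specific region had a peak at another level, the distance between summits was measured. Only peaks that overlap the region count, so the widths of region and peak bound this distance, and no expected distance was computed. The median distance from the LTO_1 summit was 46 to 54 bp for medium peaks and 68 to 71 bp for high peaks, compared with 43 bp between LTO_1 and LTO_2. Within 100 bp lay 71.9 to 76.9% of the medium and 64.1 to 65.6% of the high summits. In the 5186 regions with peaks in all 4 low libraries, which were wider, the distances were 23 to 28 bp and 38 to 48 bp.

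The regions were spread over all 29 autosomes. Their share of low-level regions ranged from 7.77% on chromosome 22 to 10.8% on chromosome 12. The medium tender share exceeded the medium tough share on 29 of 29 chromosomes, by 4.17 percentage points on chromosome 20 and 21.8 on chromosome 22, the ends of the range. All chromosomes share the same medium libraries, of which MTE had the longer lists, so they are no independent repeats. Over all autosomes the other regions shifted the same way, by −9.49 points, and their shares by chromosome are not given here. The share with a high peak varied from 12.4% on chromosome 17 to 37.1% on chromosome 8. The median distance to the next tough-specific region was 120506 bp, against 135733 bp from the other low-level regions, and 175 of them (3.78%, against 2.49% of the other regions) had another within 1 kb.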

How the data were processed

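MBD-seq peak lists of 12 libraries and of 6 merged pairs of replicates were read. The authors filtered reads with SOAPnuke, mapped them to bosTau8 with BWA 0.7.7 (version per the labels), kept unique hits and ran MACS2 at q 0.01, without an input control and with at most 1 tag per position. Per the file headers, MACS2 2.1.1.20160309 was used for single libraries (effective genome 2600000000 bp) and 2.1.0.20150731 for merged replicates (2660939081 bp). The deposited pileup is a signal not divided by depth, the deposited fold enrichment is a ratio to the local background, and the −log10 p-values and q-values are those of the authors. Of each library 3677473 to 7981292 tags were left. A library with no listed peak has no measured value.

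Peaks were joined and intersected in Python 3.11.15 with pandas 2.3.3, numpy 2.4.6 and scipy 1.17.1, checked against bedtools 2.31.1 and tested on simulated data. A region had a peak in a list where they shared 1 bp or more. The highest pileup was used where several peaks fell in a region, and depth-scaled pileup is that value per 1000000 tags left. Shares were compared between libraries by two-sided exact permutation tests, or by sign-flip tests over animals or pairs of libraries. Their p-values rest on 2 animals per group and do not measure the spread between animals. The lowest possible value is 0.333 for 2 against 2 libraries, 0.0286 for 4 against 4 and 0.125 for 4 animals. Wilson 95% intervals cover counting error alone, since regions are no replicates. Regions were named by fixed rules: the 5 strongest in LTO, the 5 strongest that were tough-specific or tender-specific at the medium level or tough-specific at the high level, the 5 of highest pileup in all 8 libraries, the 3 widest in LTO lists alone, the 3 widest of all, and 3 on each side of the rule. Those tough-specific at all 3 levels, their neighbours, those in the merged tough lists alone and the one outside the merged LTO list were named after their values were seen. The regions, rules and tests were chosen with earlier results of these data known.

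The alternatives were −log10 q of at least 3 or 5, fold enrichment of at least 3, 50% overlap of the shorter, joining across gaps of up to 500 bp, equal list lengths within a level (strongest −log10 p first), each replicate left out, replicates paired, shares relative to other regions, pileup as deposited and comparison regions with peaks in 2 low libraries. Regions without a merged LTE peak and the contrast between levels were added later. The X chromosome is outside the rule. Sequences and gene annotation were not used here, since the reference table at hand is of another assembly.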

Additional observations from a re-analysis of the deposited data

Results flagged for a closer look

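The X chromosome, which the choice of regions left out, also had tough-specific low-level regions. Of its 1337 low-level regions, 114 had a peak in both LTO and neither LTE library (8.53%, Wilson 95% interval 7.15 to 10.1%, against 9.26% on chromosomes 1 to 29), and 7 were tender-specific. They were flagged as a signal in data outside the comparisons. Of the 114, 64.5% ± 3.10 had a peak in MTE and 64.5% ± 0.62 in MTO, 26.3% ± 2.48 in HTE and 27.2% ± 1.24 in HTO (SD, n = 2). The difference between the X chromosome and the autosomes was not tested.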

How the results depend on the processing

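Of 196 alternative values of the 10 main results, 154 kept their direction, their side of the threshold and, for counts, lay within 1.5 times. Under the equal-length setting there were 579 tough-specific regions, 16 tough-specific and 19 tender-specific at the medium level, and 101 in no medium or high library; the mean share in the 4 merged medium and high lists was 70.4% against 59.8%, and the medium tough over tender pileup turned to 0.069 (log2). With −log10 q of at least 5 the high tough minus tender difference turned to −1.08 points and the counts were 47, 213 and 656. With fold enrichment of at least 3 the merged share was 56.5%. Without regions that have a merged LTE peak, added later, the counts were 29, 124 and 488 and the merged share 55.9%. As a log2 ratio to other regions the medium difference turned to 0.066, while as an excess in points over all other regions of the full lists it stayed negative. Under the equal-length setting, and against comparison regions with peaks in 2 low libraries, the excess in points was larger in MTO than in MTE. The cause was not tested.

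Leaving out an LTE or LTO library changed the rule itself, while without a medium or high library the regions were the same 4628. The number of tough-specific regions was 4628 to 17677, with the highest values of 17677 and 17511 without LTO replicate 1 and 2 and 6979 without LTE replicate 2. Across the libraries left out, tough-specific at the medium level were 72 to 203, tender-specific 323 to 948 and in no medium or high library 990 to 9147, the upper ends without an LTO replicate. The merged share was 37.5 to 63.7%. The high difference was −1.61 to 2.63 points, negative without HTE replicate 1, HTO replicate 2 or LTO replicate 1. The excess over other regions was −17.0 to 18.5 points, negative without either LTO replicate. The medium difference was −14.5 to −8.55 points and the difference of medium and high 20.2 to 37.9.

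Over single regions, same-numbered libraries hardly deviated together (correlations of 0.003 to 0.07), and some of these pairs joined tender with tough libraries. The shares of whole libraries did move together, with replicate 2 above replicate 1 in each of HTE, HTO, MTE and MTO. With the replicate block, the medium difference of −13.4 and the high one of 0.51 points had an exact sign-flip p of 0.50, and medium minus high, 35.3 points, one of 0.13, the smallest for 2 and 4 pairs. Of 35 named regions, 23 stayed tough-specific with −log10 q of at least 5 and 10 under the equal-length setting. A region without a listed peak may hold reads below the threshold.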
